A study of Mus musculus with 74 samples.

Results

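The ERBB family was described in 74 single cells of the mouse pro-epicardial organ through 6 genes. These are the receptors Egfr, Erbb2, Erbb3 and Erbb4, the neuregulin Nrg1 and the heparin-binding ligand Hbegf. They were chosen by name, as 6 of the 30323 gene identifiers with deposited counts, and all 6 are accounted for. Cells were isolated by flow cytometry at embryonic day 9.5 from C57BL/6 embryos with the alleles Tbx18Cre and mTmG, a membrane reporter that changes colour where Cre has acted. This organ is a short-lived mesothelial outgrowth near the venous pole of the heart and the source of the epicardium, and Cre expressed from Tbx18 marks its cells and their descendants. All cells share this genotype, stage and tissue, and there is no untreated or wild-type reference. No embryo or litter is named, so the 74 cells are 1 sample without replicates, and differences between cells are described without a test. Errors are standard deviations (SD) among cells, or 95% Clopper-Pearson (exact) intervals, which cover the counting of cells only.

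ERBB receptors are tyrosine kinases that work in pairs. Neuregulins bind ERBB3 and ERBB4, whereas heparin-binding EGF-like growth factor binds EGFR and ERBB4. ERBB2 has no known ligand of its own and is the preferred partner of the other receptors, and ERBB3 has little kinase activity and signals through its partner. In the developing mouse heart, neuregulin-1 from the endocardium acts on ERBB2 and ERBB4 in the myocardium, where it is required for trabeculation. ERBB3 is known from the endocardial cushions and from neural crest and glial cells.

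The receptor genes share an ancestor, and the stretch that codes for the catalytic loop of the kinase is shown here because that loop is where ERBB3 is known to differ in man. Each stretch is 48 bases of exon 21, 5′ to 3′ on the coding strand, from GENCODE M21 transcripts on GRCm38. Capitals mark bases 7 to 9, the codon at the position of the catalytic aspartate.
Egfr, chr11:16904338-16904385, plus strand: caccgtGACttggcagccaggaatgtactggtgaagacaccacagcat
Erbb2, chr11:98434247-98434294, plus strand: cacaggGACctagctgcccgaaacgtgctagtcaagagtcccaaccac
Erbb3, chr10:128572509-128572556, minus strand: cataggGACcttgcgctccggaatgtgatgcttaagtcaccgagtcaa
Erbb4, chr1:68080715-68080762, minus strand: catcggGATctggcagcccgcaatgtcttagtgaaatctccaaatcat
Compared with Erbb2, the stretch had 31 of 48 identical bases in Egfr, 30 in Erbb3 and 32 in Erbb4. Human ERBB3 carries asparagine in place of the aspartate, whereas the mouse stretch of Erbb3 has the same GAC codon as Egfr and Erbb2. Within the capitals the 4 mouse genes differed only by C9T in Erbb4, counted from the 5′ end with the Erbb2 base first, and GAC and GAT both code for aspartate. Each receptor had its own Ensembl identifier and its own counts.

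Total counts per cell ranged from 216177 to 2618538, with a median of 849718. Detection of a gene means 5 counts or more in that cell, and levels are the gene's counts scaled to the cell's total (CPM). Tbx18 was detected in 69 of 74 cells and Wt1, a defining factor of mesothelium, in 60. Of 10 mesothelial marker genes, 7 passed detection in 50% of cells or more. Cells were split by Actc1 and Lhx9, which are not members. The 9 muscle-like cells had at least 5000 CPM of Actc1, the cardiac actin gene, and the other 65 did not. The lowest Actc1 levels inside this limit were 8840 and 9110 CPM, and the highest outside it were 4759 and 4043 CPM. Of the cardiomyocyte markers, 8 of 8 measured ones, Actc1 itself among them, were at least 2-fold higher in muscle-like cells. There 10 of 10 mesothelial markers were at least 2-fold lower. Over all genes, 7.63% were at least 2-fold higher in muscle-like cells and 16.8% lower. Among the other 65 cells, 34 had Lhx9, a LIM-homeodomain factor of mesothelium, at 5 or more counts and 31 did not. Of the 10 mesothelial markers, Lhx9 among them, 8 were at least 2-fold higher in Lhx9-positive than in Lhx9-negative cells, beside 4.57% of all genes. Median depth was 808142 counts in muscle-like cells, against 866552 in the other cells. It was 810674 counts in Lhx9-positive cells, against 994986 in Lhx9-negative cells.

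**Figure D1:**
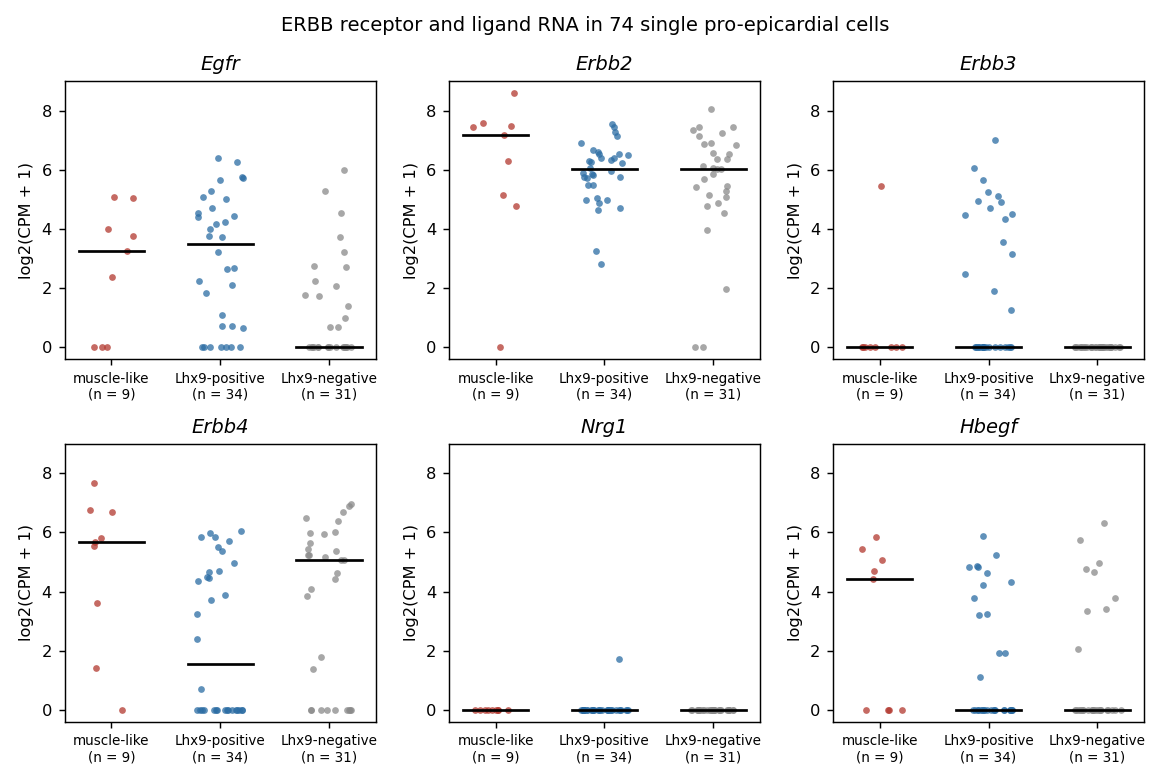
Each point is a cell, with log2(CPM + 1) on the vertical axis, in 9 muscle-like, 34 Lhx9-positive and 31 Lhx9-negative cells. Black lines are medians. Erbb2 lies above 0 in nearly all cells, Erbb3 points above 0 lie among Lhx9-positive cells apart from 1 muscle-like cell, and Nrg1 lies above 0 in 1 cell.

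Erbb2 (ENSMUSG00000062312, GRCm38 chr11:98412470-98437716, plus strand) was the ERBB receptor found in most cells. It was detected in 68 of 74 cells, or 91.9% (interval 83.2% to 97.0%). Its level ran from 0 to 384 CPM with a median of 65.9 CPM, and averaged 81.9 ± 65.9 CPM (SD, n = 74 cells). Of the 6 cells without detected Erbb2, 3 had 1 to 4 counts of it and 3 had none.

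Erbb4 (ENSMUSG00000062209, chr1:68032186-69108059, minus strand), the neuregulin receptor with a working kinase, came next with 42 of 74 cells, or 56.8% (44.7% to 68.2%). Its level ran from 0 to 202 CPM with a median of 17.6 CPM and a mean of 30.0 ± 38.5 CPM. The 42 cells with Erbb4 had a median of 43.3 CPM, and 26 cells had no count of it. Cells with and without detected Erbb4 were of like depth, with medians of 853871 and 849718 counts.

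Egfr (ENSMUSG00000020122, chr11:16752203-16918158, plus strand), a receptor for Hbegf, was detected in 31 cells, or 41.9% (30.5% to 53.9%). Its level ran from 0 to 84.3 CPM, with a median of 2.90 CPM and a mean of 12.0 ± 18.7 CPM. A further 17 cells held 1 to 4 counts, more than for any other member, so its share depended on the limit. It was 64.9% at 1 count, 28.4% at 10 counts and 28.8% of 66 cells thinned to 354002 counts each. Cells with detected Egfr had a median of 915732 counts, against 785214 counts in the others.

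Erbb3 (ENSMUSG00000018166, chr10:128567523-128589652, minus strand) was detected in 14 cells, or 18.9% (10.7% to 29.7%), and 57 cells had no count. Those 14 cells ran from 7.99 to 128 CPM with a median of 29.6 CPM. Erbb3 was thus not detected in most cells. A further 3 cells held 1 to 4 counts of it, and its share was 23.0% at 1 count, 13.5% at 10 counts and 16.7% of the thinned cells.

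Levels of different genes can be compared only per length, so CPM was divided by the length of the longest coding transcript. On this scale Erbb2 averaged 16.3 ± 13.1 CPM per kb (SD, n = 74 cells). Erbb4 averaged 2.49 ± 3.19, Erbb3 1.19 ± 3.23 and Egfr 1.17 ± 1.84 CPM per kb. Erbb2 made up 77.1% of the summed receptor level per kb, and it was the highest of the 4 receptors in 64 of 74 cells. Erbb4 was the highest in 4 cells, Egfr in 3 and Erbb3 in 3. The differences between Erbb4, Erbb3 and Egfr lay within their spread over cells.

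Erbb2 was set beside 14 other receptor tyrosine kinases chosen by name, which are only some of this family. Fgfr2, an FGF receptor, averaged 18.3 ± 18.9 CPM per kb, Pdgfra, a PDGF receptor, 17.6 ± 13.1, and Tek, the angiopoietin receptor, 10.9 ± 11.8 CPM per kb. The order depended on the length used. With the merged length of all exons in place of the longest transcript, Erbb2 averaged 15.7 CPM per kb, Pdgfra 12.0, Tek 10.8 and Fgfr2 7.62. Ret, the GDNF receptor, was detected in no cell.

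**Figure D2:**
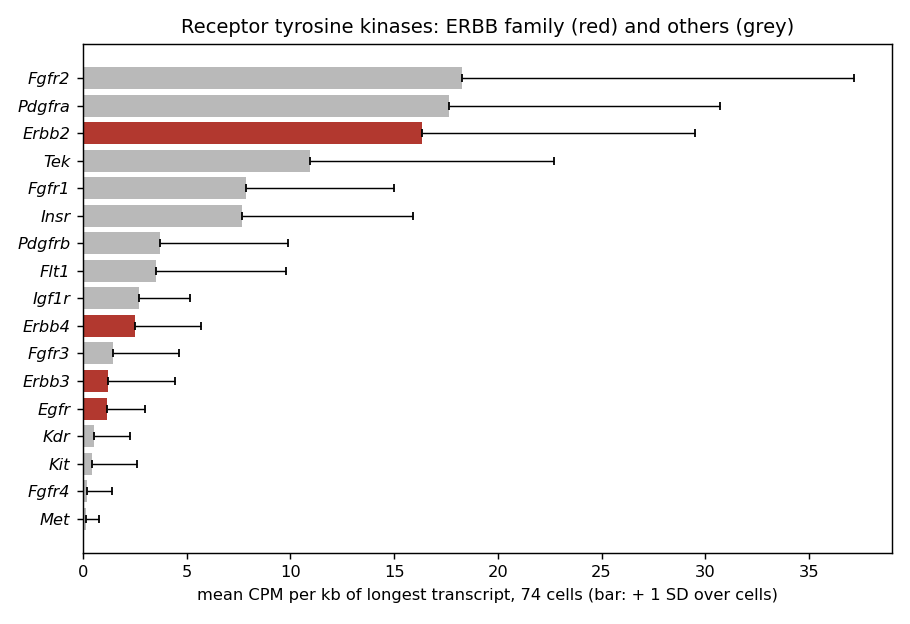
Bars give mean CPM per kb of the longest coding transcript over 74 cells on an axis from 0, with 1 SD over cells to the right, for the ERBB receptors in red and other receptor tyrosine kinases in grey. Erbb2, at 16.3 CPM per kb, lies close to Pdgfra and Fgfr2, while Erbb4, Erbb3 and Egfr lie at 2.49 or below.

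Because the receptors work in pairs, the cells that held each pair were counted. Every cell had at least 1 detected receptor. In 22 cells it was 1 receptor, in 30 cells 2, in 15 cells 3 and in 7 cells all 4. Cells with 1 receptor had a median depth of 705126 counts, those with 2 had 875862, those with 3 had 1214070 and those with 4 had 788465. After thinning, 22, 32, 8 and 4 of 66 cells had 1, 2, 3 and 4 receptors. The number of receptors therefore followed depth up to 3 receptors, and the cells with all 4 were not deeper than the rest.

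The most frequent sets were Erbb2 alone and Erbb2 with Erbb4, in 18 cells each. Erbb2, Erbb4 and Egfr together were found in 12 cells, and Erbb2 with Egfr in 8. Erbb2 alone, the receptor without a known ligand and with no detected partner, was spread over 1 muscle-like, 8 Lhx9-positive and 9 Lhx9-negative cells. Some of these 18 cells held counts of another receptor below the detection limit, and others held none. Among the Lhx9-positive ones, P1-15 had 4 counts of Egfr and 1 of Erbb4, whereas P1-68 had no count of another receptor. This set thus depends on the detection limit and does not show that a partner was absent. Erbb2 with Erbb4 and no other receptor was found in 3 muscle-like, 2 Lhx9-positive and 13 Lhx9-negative cells. All 8 cells with Erbb2 and Egfr alone were outside the Lhx9-negative class, as 7 were Lhx9-positive and 1 was muscle-like. The 7 cells with all 4 receptors were Lhx9-positive, at depths from 275837 to 2618538 counts.

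**Figure D3:**
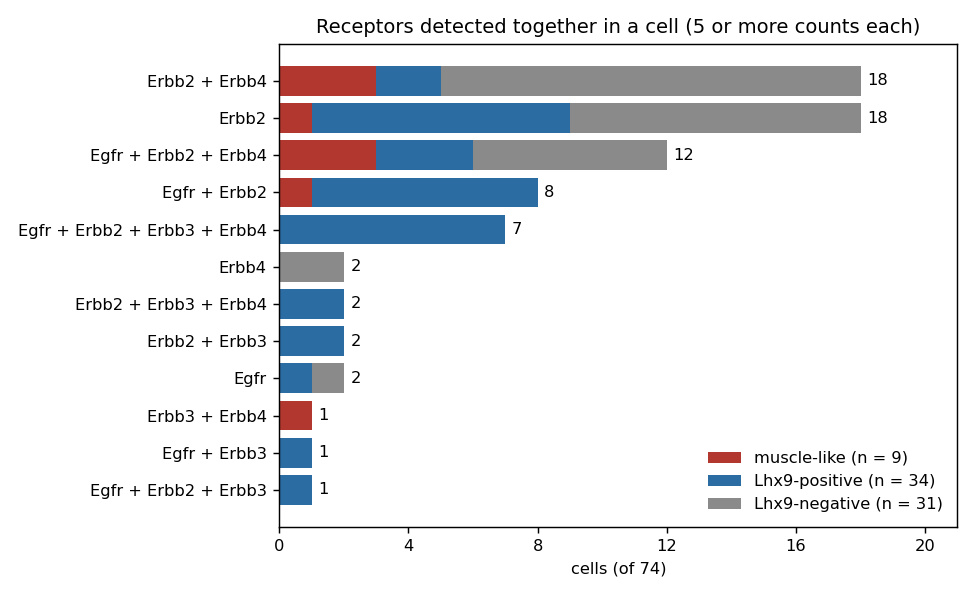
Bars count the cells (of 74) with each set of receptors detected at 5 or more counts, split into 9 muscle-like, 34 Lhx9-positive and 31 Lhx9-negative cells. Sets with Erbb3 are blue apart from 1 muscle-like cell, and Erbb2 with Erbb4 is mostly grey.

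The pairs of Erbb2 were found about as often as independent detection would give. Erbb2 and Erbb4, the neuregulin pair of the myocardium, were together in 39 cells, against 38.6 if the genes were detected independently, a ratio of 1.01. Erbb2 and Egfr were together in 28 cells, against 28.5, a ratio of 0.983. Erbb2 and Erbb3 were together in 12 cells, against 12.9, a ratio of 0.933. With Erbb2 in almost every cell, its pairs could hardly depart from these numbers. Egfr and Erbb4, the receptors that bind Hbegf, were together in 19 cells, against 17.6, a ratio of 1.08, which was 0.715 in the thinned cells.

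Egfr and Erbb3 were together in 9 cells, against 5.86, a ratio of 1.53. The ratio was 1.18 within Lhx9-positive cells and also 1.18 over all cells with detection at 1 count. It was 1.76 with detection at 10 counts, 1.89 in the thinned cells and 1.67 in cells that are not muscle-like. Erbb3 and Erbb4 were together in 10 cells, against 7.95, a ratio of 1.26, or 1.09 with detection at 1 count. The ratio was 1.52 with detection at 10 counts, 1.41 in the thinned cells and 1.29 in cells that are not muscle-like. Within Lhx9-positive cells this pair was found in 9 cells, against 5.35, a ratio of 1.68. Of the 14 Lhx9-positive cells with Erbb4, 9 had Erbb3, and of the 20 without Erbb4, 4 had it. These 2 sets had median depths of 840640 and 784806 counts.

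All 14 Erbb3 cells had another receptor, so none had Erbb3 as its sole ERBB receptor. Erbb2 was present in 12 of them, Erbb4 in 10 and Egfr in 9. The exceptions to Erbb2 were P1-11, an Lhx9-positive cell with 2 counts of Erbb2 and the highest Egfr level of all cells, 84.3 CPM, and P1-13, a muscle-like cell with no count of Erbb2. Cell P1-13 held 42.7 CPM of Erbb3 and 50.0 CPM of Erbb4 at a depth of 959828 counts.

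**Figure D4:**
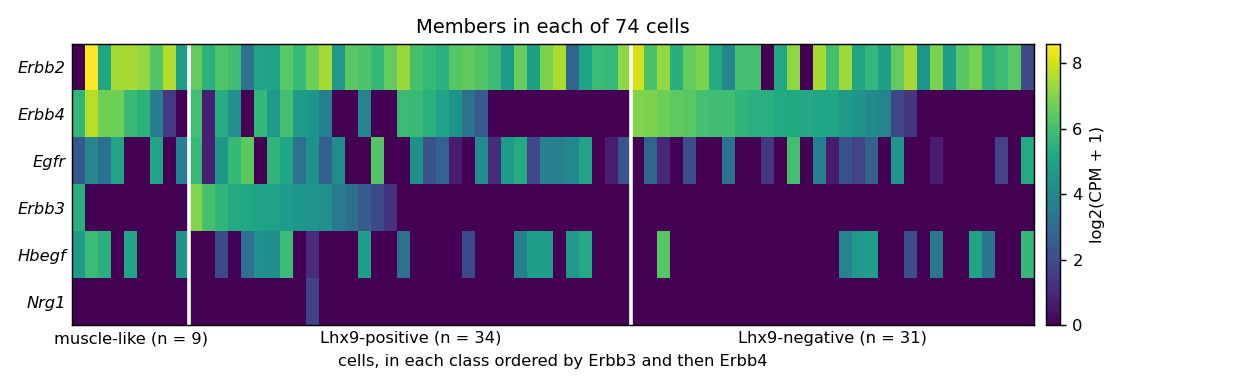
Each column is a cell, grouped as 9 muscle-like, 34 Lhx9-positive and 31 Lhx9-negative cells and ordered within a class by Erbb3 and then Erbb4. Colour gives log2(CPM + 1). Among Lhx9-positive cells, 9 of 13 with Erbb3 also hold Erbb4, while in Lhx9-negative cells Erbb4 is present in 21 of 31 and Erbb3 in none.

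Nrg1 and Hbegf were each found in fewer cells than Erbb2, Erbb4 or Egfr. Nrg1 (ENSMUSG00000062991, chr8:31814551-32884029, minus strand) was detected in 1 of 74 cells, or 1.35% (0.0342% to 7.30%), and the other 73 cells had no count. The 1 cell, P1-70, held 6 counts or 2.29 CPM and was the deepest of all, with 2618538 counts. It was Lhx9-positive and had all 4 receptors. At 10 counts or after thinning no cell had Nrg1. The interval leaves room for a share of up to 7.30%.

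Hbegf (ENSMUSG00000024486, chr18:36504927-36515805, minus strand) was detected in 21 cells, or 28.4% (18.5% to 40.1%). Its level ran from 0 to 78.4 CPM with a median of 0 and a mean of 9.45 ± 16.8 CPM, and the 21 cells had a median of 27.3 CPM. Per length it averaged 3.98 CPM per kb of its longest transcript, or 1.95 with merged exons.

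Receptors were counted in the cells with Hbegf and in those without. Egfr or Erbb4, the receptors that bind it, were detected in 17 of 21 Hbegf cells and in 37 of 53 cells without Hbegf. Erbb2 was detected in 18 of 21 Hbegf cells and in 50 of 53 cells without. The shares overlapped in their intervals, 58.1% to 94.6% against 55.7% to 81.7% for Egfr or Erbb4. Fos and Egr1 are immediate-early genes that are switched on by growth factors and by cell dissociation alike. Fos averaged 126 ± 107 CPM in Hbegf cells and 160 ± 161 CPM in the others (SD, n = 21 and 53 cells), and Egr1 16.9 ± 28.5 CPM in Hbegf cells and 27.1 ± 94.6 CPM in the others. The Egr1 mean of the others rested on 1 cell of 671 CPM and was 14.7 CPM without it. Egr1 was detected in 7 of 21 Hbegf cells and in 19 of 53 others, and its median was 0 in both.

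Of 11 listed EGF-family ligands, 10 were detected in at least 1 cell and Nrg3 in none. Nrg4, a neuregulin for ERBB4, was detected in 10 cells with a highest level of 15.0 CPM, of which 1 also had Hbegf. Epgn was detected in 3 cells, Nrg2, Egf and Btc in 2 each, and Tgfa, Areg and Ereg in 1 each. Any neuregulin was found in 13 cells, or 17.6% (9.70% to 28.2%), while 46 cells had Erbb3 or Erbb4 and 42 of these also had Erbb2. Any ligand was found in 36 cells, or 48.6%, and 7 cells had more than 1. By class, any ligand was found in 7 of 9 muscle-like cells (39.99% to 97.2%), against 29 of 65 other cells (32.3% to 57.5%). The cells with Tgfa and Areg were muscle-like.

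Muscle-like cells had higher mean levels of Erbb4, Erbb2 and Hbegf than the other cells, with wide overlap. Erbb4 ran from 0 to 202 CPM in muscle-like cells with a median of 50.0 CPM, and from 0 to 123 CPM in the other cells with a median of 13.9 CPM. It averaged 64.1 ± 65.0 CPM in muscle-like cells and 25.3 ± 31.2 CPM in the other cells (SD, n = 9 and 65 cells), a log2 ratio of 1.31 with 1 CPM added to each mean. It was detected in 7 of 9 muscle-like cells (39.99% to 97.2%), against 35 of 65 other cells (41.0% to 66.3%). The ranges overlapped, and 1 cell, P1-65, decided whether the ratio passed 2-fold. This cell had 202 CPM of Erbb4 and 384 CPM of Erbb2, the highest levels of both, and 56.9 CPM of Hbegf. Without it, an alternative chosen after the data were seen, the Erbb4 ratio was 0.87.

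Erbb2 ran from 0 to 384 CPM in muscle-like cells with a median of 144 CPM, and from 0 to 267 CPM in the other cells with a median of 64.3 CPM. Its mean was 134 ± 118 CPM in muscle-like cells and 74.7 ± 52.7 CPM in the other cells, a log2 ratio of 0.83, or 0.45 without P1-65. Only 1 of the 9 muscle-like cells, P1-13, lacked it. Hbegf was detected in 5 of 9 muscle-like cells (21.2% to 86.3%), against 16 of 65 other cells (14.8% to 36.9%). It averaged 19.8 ± 21.4 CPM in muscle-like cells and 8.01 ± 15.7 CPM in the other cells, a log2 ratio of 1.21, or 0.84 without P1-65. Its highest level, 78.4 CPM, was in an Lhx9-negative cell, P1-63.

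Egfr had close means in both classes, 11.6 ± 12.8 CPM in muscle-like cells and 12.0 ± 19.5 CPM in the other cells, with a log2 ratio of -0.05. Erbb3 was detected in 1 of 9 muscle-like cells and in 13 of 65 other cells, a log2 ratio of -0.57. Of the 5 members measured in at least 8 cells, 2 were at least 2-fold higher in muscle-like cells and 0 were lower. Over all 11511 genes measured this way, 7.63% were at least 2-fold higher and 16.8% lower, with a median log2 ratio of -0.18. The classes also differ in muscle and mesothelial markers, as given above, and the part of these in the members' values was not tested.

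The muscle-like values also depended on which cells stood beside them. Against Lhx9-negative cells alone, a comparison added after the data were seen, the log2 ratio was 0.86 for Erbb4, and 0.96 for Egfr. Along bands of Actc1, Erbb4 was detected in 11 of 27 cells without detected Actc1, in 17 of 29 cells with Actc1 under 1000 CPM, in 7 of 9 cells from 1000 to under 5000 CPM and in 7 of 9 muscle-like cells. Mean Erbb4 was 15.3 ± 20.6, 27.9 ± 33.6, 46.6 ± 39.7 and 64.1 ± 65.0 CPM in these bands, which were drawn after the values were seen. The upper bands hold 9 cells each, and each SD is larger than the step to the next band. The first band held 17 Lhx9-positive cells, the second 16, the third 1 and the fourth 0, as this class leaves out muscle-like cells. Lhx9-positive cells thus became fewer in the bands of higher Actc1. Spearman's rho between Actc1 and Lhx9 over the 74 cells was -0.35. The parts of Lhx9 and Actc1 in the Erbb4 values were not tested. Egfr and Erbb3 were detected in 0 of 9 cells of the third band, where a share of up to 33.6% is inside the interval. Over all 74 cells, Spearman's rho between Erbb4 and Actc1 was 0.37, a description over cells that share depth and composition.

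Among the cells that are not muscle-like, Erbb3, Egfr and Erbb4 differed between the Lhx9 classes. These classes also differ in other markers. Of 10 septum transversum markers, 8 were at least 2-fold lower in Lhx9-positive cells, beside 7.04% of all genes. So were 7 of 8 measured cardiomyocyte markers. The part of these differences in the receptor values was not tested. Erbb3 was detected in 13 of 34 Lhx9-positive cells (22.2% to 56.4%), against 0 of 31 Lhx9-negative cells (0% to 11.2%). No count of Erbb3 was found in the 31 Lhx9-negative cells. Summed over cells, Erbb3 held 503 counts in Lhx9-positive cells, or 15.8 CPM, against 0 counts in Lhx9-negative cells, where a floor of 3 counts over the class is 0.0961 CPM. The summed level of Lhx9-positive cells was 164-fold that floor. This ratio compares summed reads and is no lower bound over cells, since a share of up to 11.2% of Lhx9-negative cells is inside the interval. With 1 CPM added to each mean, the log2 ratio was 3.94. At equal depth Erbb3 was detected in 10 of 29 Lhx9-positive and 0 of 29 Lhx9-negative cells. Median depth was lower in Lhx9-positive cells, at 810674 counts, against 994986 counts in Lhx9-negative cells.

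Egfr was likewise detected in 20 of 34 Lhx9-positive cells (40.7% to 75.4%), against 7 of 31 Lhx9-negative cells (9.59% to 41.1%). It averaged 18.0 ± 22.4 CPM in Lhx9-positive cells and 5.45 ± 13.1 CPM in Lhx9-negative cells (SD, n = 34 and 31 cells), a log2 ratio of 1.56. Its level ran from 0 to 84.3 CPM with a median of 10.3 CPM in Lhx9-positive cells, and from 0 to 62.2 CPM with a median of 0 in Lhx9-negative cells. At equal depth it was detected in 13 of 29 Lhx9-positive cells and 3 of 29 Lhx9-negative cells. The levels overlapped, since some cells of each class were without Egfr.

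Erbb4 ran the other way. It was detected in 14 of 34 Lhx9-positive cells (24.6% to 59.3%), against 21 of 31 Lhx9-negative cells (48.6% to 83.3%), and these intervals overlap. It averaged 16.4 ± 21.7 CPM in Lhx9-positive cells and 35.0 ± 37.0 CPM in Lhx9-negative cells, a log2 ratio of -1.05. Without cells at or above 1000 CPM of Actc1, a change made after the data were seen, the ratio was -0.74 and no longer past 2-fold, and without P1-19 alone, an Lhx9-negative cell with 123 CPM of Erbb4, it was -0.92. At equal depth Erbb4 was detected in 11 of 29 Lhx9-positive cells and 18 of 29 Lhx9-negative cells.

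Erbb2 and Hbegf had close means in both Lhx9 classes. Erbb2 averaged 71.8 ± 43.6 CPM in Lhx9-positive cells and 77.8 ± 61.7 CPM in Lhx9-negative cells, a log2 ratio of -0.11, and Hbegf 8.08 ± 13.9 CPM in Lhx9-positive cells and 7.94 ± 17.7 CPM in Lhx9-negative cells, a log2 ratio of 0.02. Of the 5 measured members, 2 were at least 2-fold higher in Lhx9-positive cells and 1 was at least 2-fold lower. Erbb3, 1 of the 2, passed the filter of 8 cells only through Lhx9-positive cells, which were 13 of its 14 cells. Its place among the measured members is thus not independent of its ratio. Over all genes the shares were 4.57% higher and 7.04% lower, with a median log2 ratio of -0.06. The ERBB receptors per kb were thus made up differently in the classes, with Erbb3 at 12.0% of the summed receptor level in Lhx9-positive cells and 0% in Lhx9-negative cells, and Erbb4 at 6.87% in Lhx9-positive cells and 15.3% in Lhx9-negative cells. Erbb2 held 72.2% of the sum in Lhx9-positive cells and 81.9% in Lhx9-negative cells.

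Erbb3 is also a gene of neural crest and glia, and Sox10, a transcription factor of those cells, had the second highest Spearman correlation with it over the 74 cells, with a rho of 0.61. Within the Lhx9-positive class, median depth was 832884 counts in cells with Erbb3 and 736729 counts in cells without. In this class Sox10 was detected in 6 of 13 cells with Erbb3 and in 2 of 21 cells without. Its highest level was 66.1 CPM, or 94 counts. Of the 10 neural crest and glial markers, 5 were detected in no cell of the 74, among them the defining genes Foxd3, Tfap2a and Tfap2b. The summed level of the list ran from 29.4 to 385 CPM with a median of 157 CPM in Lhx9-positive cells with Erbb3. In Lhx9-positive cells without Erbb3 it ran from 5.47 to 509 CPM with a median of 80.3 CPM. Ets1 and Ednrb had the highest means of the list in Lhx9-positive cells. Ets1 averaged 78.0 CPM in those with Erbb3 and 40.5 CPM in those without. Ednrb averaged 80.1 and 73.1 CPM in the same order, and Sox10 12.6 and 0.860 CPM. The mesothelial factor Wt1 was detected in 13 of 13 Lhx9-positive cells with Erbb3 and in 20 of 21 without, and Upk3b, a mesothelial uroplakin, in 13 of 13 with Erbb3 and 17 of 21 without. The muscle-like Erbb3 cell, P1-13, had no count of Sox10, Wt1 or Lhx9 and had 7 of 10 cardiomyocyte markers, including Actc1, by which it was classed. The part of neural crest RNA in the Erbb3 values was not tested.

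Lhx9-positive cells with Erbb3 differed from those without in detection or mean level of some further genes, at the median depths given above. These genes were chosen after their values were seen, and no share of all genes is given for these cells. Cd44, a surface glycoprotein that can hold heparin-binding ligands, was detected in 7 of 13 cells with Erbb3 and in 4 of 21 without. Ccnd1, cyclin D1, averaged 242 ± 137 CPM in the cells with Erbb3 and 107 ± 113 CPM in the cells without, and Phlda1, an ERK-responsive gene, 91.6 ± 55.9 CPM in the cells with Erbb3 and 48.3 ± 56.2 CPM in the cells without. Dusp6, the feedback phosphatase of ERK, was not higher, with 96.2 ± 63.3 CPM in the cells with Erbb3 and 139 ± 94.1 CPM in the cells without. Fos and Cd9 had close means. Fos averaged 165 ± 168 CPM in the cells with Erbb3 and 155 ± 142 CPM in the cells without. Cd9 averaged 67.0 ± 110 CPM in the cells with Erbb3 and 62.2 ± 105 CPM in the cells without.

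The rest of the pathway was present in most cells. Of 31 adaptors and kinases below the receptors, 25 were detected in at least 50% of cells, among them Map2k2, a kinase of the ERK branch, at 303 ± 93.3 CPM and Akt1, a kinase of the PI3K branch, at 213 ± 118 CPM. Of 29 measured, 1 was at least 2-fold higher and 5 were lower in muscle-like cells, where 7.63% and 16.8% of all genes were, so these counts were near or below the shares of all genes. The higher one was Pik3r3, with a mean of 62.0 CPM in muscle-like cells and 16.3 CPM in the other cells. The 5 lower ones were Mapk3, Pik3ca, Pik3cb, Pik3r1 and Src, among which Pik3r1, the main regulatory subunit of PI3K, averaged 0.898 CPM in muscle-like cells and 9.07 CPM in the other cells. The median log2 ratio of the 29 was 0.03, against -0.18 for all genes. Between Lhx9-positive and Lhx9-negative cells 1 of the 29, Pik3cb, was at least 2-fold higher and 0 were lower. Over all genes 4.57% were higher and 7.04% lower, so these counts too were near or below the shares of all genes. Pik3cb averaged 13.8 CPM in Lhx9-positive cells and 2.04 CPM in Lhx9-negative cells. The median log2 ratio of the 29 was then 0.06, against -0.06 for all genes.

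Genes that inhibit the receptors or take part in their turnover were measured in full, 17 of 17. Stub1, a ubiquitin ligase, was the most abundant at 521 ± 148 CPM, followed by Hgs at 89.9 and Ptpn1 at 86.3 CPM. In muscle-like cells Cblb, a ligase that sends active receptors to degradation, was higher at 32.8 CPM, against 13.4 CPM in the other cells. Errfi1, an inhibitor that binds ERBB kinase domains, was lower at 6.10 CPM in muscle-like cells, against 49.7 CPM in the other cells, as were Ptpn12 and Usp8, the last at a log2 ratio of -1.03 that was -0.88 without 1 muscle-like cell. By Lhx9, Lrig3 alone was past 2-fold, at 3.24 CPM in Lhx9-positive cells and 10.1 CPM in Lhx9-negative cells. Of the 17, 1 was at least 2-fold higher and 3 were lower in muscle-like cells, beside 7.63% and 16.8% over all genes. In Lhx9-positive cells 0 were higher and 1 was lower, beside 4.57% and 7.04%. The median log2 ratios of the list were -0.19 for muscle-like and -0.01 for Lhx9-positive cells.

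Of the 10 genes that release ligands from the membrane or control that step, 9 were measured. Adam17, the main sheddase of Hbegf, was detected in 65 cells at 49.6 ± 41.5 CPM, Rhbdf1, which escorts Adam17, in 49 cells at 38.2 CPM and Adam10 in 65 cells at 30.4 CPM. Timp3, an inhibitor of Adam17, was higher in muscle-like cells, at 90.3 CPM in muscle-like cells and 17.5 CPM in the other cells, while Adam12 was lower, at 4.76 CPM in muscle-like cells and 32.1 CPM in the other cells. By Lhx9, Timp3 averaged 9.27 CPM in Lhx9-positive cells and 26.6 CPM in Lhx9-negative cells, and Adam19 2.90 CPM in Lhx9-positive cells and 17.9 CPM in Lhx9-negative cells. Of the 9 measured, 1 was at least 2-fold higher and 1 was lower in muscle-like cells, beside 7.63% and 16.8% over all genes. In Lhx9-positive cells 0 were higher and 2 were lower, beside 4.57% and 7.04%. The median log2 ratios of the list were 0.14 for muscle-like and -0.13 for Lhx9-positive cells.

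Surface proteins that hold EGF-family ligands were measured for 9 of 9 genes, led by the glypican Gpc3 at 2056 ± 900 CPM, the tetraspanin Cd81 at 405 CPM and the syndecan Sdc1 at 90.4 CPM. Cd9, a tetraspanin that binds membrane Hbegf, averaged 2.52 CPM in muscle-like cells and 37.5 CPM in the other cells. Between the Lhx9 classes it averaged 64.0 CPM in Lhx9-positive cells and 8.44 CPM in Lhx9-negative cells. The syndecan Sdc4 had the same order, with 3.39 CPM in muscle-like cells against 53.3 CPM in the other cells, and 91.2 CPM in Lhx9-positive cells against 11.8 CPM in Lhx9-negative cells. Sdc3, whose muscle-like log2 ratio of 1.23 was 0.71 without 1 cell of 111 CPM, had the opposite one, at 31.7 CPM in muscle-like cells against 12.9 CPM in the other cells, and 5.13 CPM in Lhx9-positive cells against 21.5 CPM in Lhx9-negative cells. Cd44 was higher in muscle-like cells, at 69.9 CPM against 10.4 CPM in the other cells, and Sdc1 was lower, at 15.2 CPM against 101 CPM. Of the 9, 2 were at least 2-fold higher and 3 were lower in muscle-like cells, beside 7.63% and 16.8% over all genes. In Lhx9-positive cells 2 were higher and 1 was lower, beside 4.57% and 7.04%. The median log2 ratios of the list were -0.33 for muscle-like and -0.32 for Lhx9-positive cells.

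Of 15 genes known to respond to ERK, 14 were measured and Etv4 was detected in no cell. Dusp6 was the most abundant at 160 ± 115 CPM, followed by Fos at 151 and Myc at 103 CPM. In muscle-like cells 4 of 14 were at least 2-fold lower and 0 higher, beside 16.8% lower and 7.63% higher over all genes. These were Ccnd1, with 14.4 CPM in muscle-like cells and 108 CPM in the other cells, Dusp4, Fosl1 and Phlda1. The median log2 ratio of the list was -0.41, against -0.18 for all genes. In Lhx9-positive cells 5 of 14 were higher and 1 was lower, beside 4.57% higher and 7.04% lower over all genes. Ccnd1 averaged 159 CPM in Lhx9-positive cells and 51.8 CPM in Lhx9-negative cells, and Myc 135 CPM in Lhx9-positive cells and 55.0 CPM in Lhx9-negative cells. Dusp4 averaged 41.4 CPM in Lhx9-positive cells and 12.0 CPM in Lhx9-negative cells, and Fosl1 10.2 CPM in Lhx9-positive cells and 0.290 CPM in Lhx9-negative cells. Spry1 averaged 9.49 CPM in Lhx9-positive cells and 4.05 CPM in Lhx9-negative cells, and its log2 ratio of 1.06 was 0.80 without 1 Lhx9-positive cell of 64.7 CPM. Egr1 was the lower one, at 6.87 CPM in Lhx9-positive cells and 39.6 CPM in Lhx9-negative cells. The Lhx9-negative mean was 18.6 CPM without 1 cell of 671 CPM, and the log2 ratio was then -1.32 in place of -2.37. The list's median log2 ratio was 0.09, against -0.06 for all genes. Many receptors feed ERK, and the ERBB receptors' part in these levels was not tested.

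Other receptor tyrosine kinases gave a comparison for the receptors themselves. Of 10 measured, 4 were at least 2-fold lower in muscle-like cells and 0 higher, namely Fgfr2, Flt1, Pdgfrb and Tek, beside 16.8% lower and 7.63% higher over all genes. Of the 4 ERBB receptors 1, Erbb4, was higher and 0 were lower, and Erbb4 too was below 2-fold without P1-65, at 0.87. The median log2 ratio was -0.49 for the 10 and 0.39 for the ERBB receptors. Fgfr2 averaged 22.0 CPM in muscle-like cells and 86.5 CPM in the other cells. By Lhx9, 1 of the 10 was at least 2-fold higher and 2 were lower, beside 4.57% higher and 7.04% lower over all genes. Flt1, a VEGF receptor, averaged 48.9 CPM in Lhx9-positive cells and 2.59 CPM in Lhx9-negative cells. Pdgfrb averaged 5.93 CPM in Lhx9-positive cells and 38.96 CPM in Lhx9-negative cells, and Fgfr1 21.8 and 57.0 CPM in the same order. Tek and Kdr are also endothelial markers and were detected in 52 and 8 cells. Of 10 endothelial markers, 3 were detected in at least 50% of cells and 3, the defining genes Cdh5, Tie1 and Emcn, in no cell. The summed level of the list ran from 11.9 to 177 CPM with a median of 93.1 CPM in muscle-like cells, and from 34.4 to 320 CPM with a median of 144 CPM in the other cells.

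**Figure D5:**
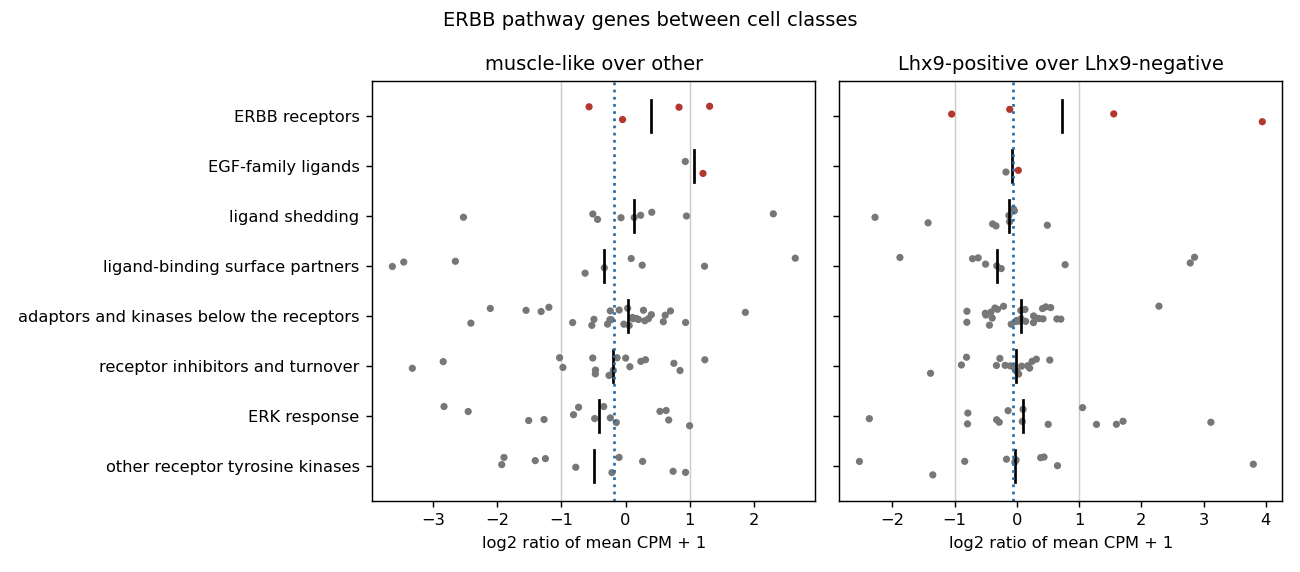
Each point is a measured gene of the ERBB pathway, placed by its log2 ratio of mean CPM + 1 between muscle-like and other cells on the left and between Lhx9-positive and Lhx9-negative cells on the right. Members are red, black bars are list medians, the dotted line is the median of all genes and grey lines mark 2-fold. The Erbb3 point on the right, against a class at 0, depends on the added 1 CPM.

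Genes whose levels over the 74 cells were most like each member's were ranked by Spearman's rho of log2(CPM + 1), as a description. For Erbb3 they were Tubb3, a neuronal tubulin, with rho 0.61, Sox10 with 0.61, Map3k4 with 0.61, Ppfibp1 with 0.60 and Vwa1 with 0.59. Tubb3 averaged 215 CPM in Lhx9-positive cells and 8.21 CPM in Lhx9-negative cells, and rho between Erbb3 and Lhx9 was 0.57. For Erbb4 they were the noncoding Snhg11 with 0.58, Zfp280d with 0.54, Zbtb20 with 0.51, Plcb1 with 0.50 and Pgam2, the muscle phosphoglycerate mutase, with 0.50. Pgam2 averaged 747 CPM in muscle-like cells, against 14.3 CPM in Lhx9-positive and 59.3 CPM in Lhx9-negative cells.

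The other members had weaker likenesses. For Erbb2 they were Adcy5 with 0.42, Sorbs2 with 0.40, Csnk2b with 0.38, Arfgef1 with 0.38 and Nfe2l1 with 0.37. For Egfr they were Rala with 0.47, Kif1a with 0.46, and Dennd1b, Tfcp2l1 and Map3k10 with 0.45 each. For Hbegf they were Nat8f4 with 0.44, Ap4m1 with 0.42, Abcc5 with 0.40, Trit1 with 0.39 and Ppm1j with 0.38. Between the members themselves rho was 0.30 for Egfr with Erbb3, 0.20 for Erbb2 with Erbb4 and 0.02 for Erbb3 with Erbb4. Correlations of this size in sparse counts are no finding.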

How the data were processed

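RNA of 74 cells was sequenced after SMARTSeq V4 amplification and Nextera XT library preparation. For each gene and cell, the authors deposited estimated counts, all whole numbers, without scaling for depth or length. Kallisto and the build hg38 are named, per the submitters' processing notes, whereas the deposited identifiers are mouse Ensembl identifiers. Version and annotation are not given in the sources used here. Gene symbols matched 29857 of 30323 identifiers, and the other 466 held 0.357% of counts. Positions, lengths and sequences came from GENCODE M21 (GRCm38).

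Counts were scaled to CPM. No cell was left out and no doublet caller was run; no pair of cells had identical counts. Reads without molecular identifiers are not independent molecules, so intervals cover counting only. Ratios between classes are log2 of mean CPM plus 1, over the 11511 genes detected in at least 10% of cells, with a limit of 2-fold. For comparison at equal depth, cells were thinned to 354002 counts, which left out 8. The members, lists and classes were chosen with earlier results of these data known. Named genes were the members, the 3 most abundant genes of each pathway list with those past 2-fold or in no cell, and the 5 genes most like each member; a few genes that this rule names are not reported here. Cells named by number, the Actc1 bands and the genes compared within Erbb3 and Hbegf cells were chosen after their values were seen. The ratio and likeness steps were tested on simulated data, and the outcome is not reported here. Tools were SciPy 1.17.1, pandas 2.3.3 and numpy 2.4.6 in Python 3.11.15, with Biopython 1.88 and matplotlib 3.10.9, and scran 1.30.0 in R 4.3.3.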

Additional observations from a re-analysis of the deposited data

How the results depend on the processing

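Over 127 alternatives of 38 results, 103 stayed within the spread or within 1.5-fold for counts of genes, 24 moved and 0 changed the direction of a called value. No paired analysis was possible because all cells form 1 group without replicates. Egfr was detected in 64.9% of cells at 1 count, 28.4% at 10 counts and 28.8% after thinning, and Nrg1 in 0% at 10 counts and 0% after thinning. With merged exon lengths Nrg1 averaged 0.00299 and Hbegf 1.95 CPM per kb. For muscle-like over other cells, the log2 ratio at an Actc1 limit of 2000 CPM was -1.07 for Erbb3 and 0.86 for Hbegf, and at 10000 CPM it was -0.80 for Egfr and 1.83 for Hbegf. With 10 CPM added it was 0.73 for Hbegf. Among alternatives chosen after seeing the data, leaving out P1-65 gave 0.87 for Erbb4 and 0.84 for Hbegf. Against Lhx9-negative cells alone the ratio was 0.96 for Egfr, 0.86 for Erbb4 and 2.52 for Erbb3, whose value rests on the 1 muscle-like cell with Erbb3 and on the added 1 CPM. For Lhx9-positive over Lhx9-negative cells, leaving out cells at or above 1000 CPM of Actc1 gave -0.74 for Erbb4. Genes at least 2-fold higher in muscle-like cells numbered 878, against 1354 with genes detected in at least 1 cell and 447 with 10 CPM added, and those lower 1934, against 716 with 10 CPM added. Those higher in Lhx9-positive cells numbered 526, against 799 and 181, and those lower 810, against 233. With each cell left out in turn, also chosen after seeing the data, the pathway genes that lost their 2-fold ratio were Sdc3 and Usp8 for muscle-like cells and Spry1 for Lhx9-positive cells, beside the members Erbb4 and Hbegf. The cause of these moves was not tested. The scaling by scran moved the median of all genes by 0.04 for muscle-like and 0.03 for Lhx9-positive cells. At the median depth of 849718 counts, the limit of 5 counts leaves genes of a few CPM undetected.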
